A study of Mus musculus with 2 samples.

Results

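The genes described here encode matrix metalloproteinases (Mmp), proteases of the ADAMTS family (a disintegrin and metalloproteinase with thrombospondin motifs) and tissue inhibitors of metalloproteinases (Timp), measured in mouse nasal mucosa. They were chosen by symbol: every probe set annotated with exactly 1 gene symbol that reads Mmp, Adamts or Timp followed by a number was taken, Adamtsl genes were left out, and a gene with several probe sets was represented by the one with the highest mean signal. This gave 44 genes of 22180 named genes on the array, 22 Mmp, 18 Adamts and 4 Timp genes. Mmp15 and Adamts2, listed for the mouse in RefSeq, were not analysed here.

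The specimens came from C57BL/6 mice aged 4 to 6 weeks. One was given papain, a plant cysteine protease used to model allergen exposure, and the other phosphate-buffered saline (PBS), the vehicle, and both were labelled day 3. Mouse Gene 2.0 ST arrays of Affymetrix were used, 1 per group. Per the design text 4 samples made up a combined specimen, so the array of a group carries no information on the spread between animals.

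Matrix metalloproteinases and ADAMTS enzymes are zinc-dependent endopeptidases that cut collagens, proteoglycans and other matrix proteins, and that also process cytokines and receptors at the cell surface. Most matrix metalloproteinases are made as latent pro-enzymes and are activated by other proteases. TIMPs bind the active site and block it, so activity in a tissue depends on the enzyme, its activation and its inhibitors together. In airway mucosa these genes are expressed by stromal cells, leukocytes and epithelium, and the turbinate bone beneath the mucosa holds osteoblasts and osteoclasts that use them as well.

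All values are log2 signals of 1 array, and log2 ratios are papain minus PBS. With 1 array per group there was no replicate check, no test was possible, and higher and lower describe these 2 arrays. A change of at least 1.5-fold was used as a rule of size. The spread available in the table is that between probe sets of the same gene, which gave an SD of 0.33 for the log2 ratio of 1 probe set over 1082 genes. Background level is the median over 32 genes typical of other organs, 4.91 after papain and 4.93 after PBS, and a signal is called clear when it reaches their 95th percentile, 6.43 after papain and 6.55 after PBS. Of the 44 genes, 14 were clear in both arrays, 22 lay above background level without being clear in both, 3 were under background level in 1 array and 5 in both. Ratios of the last 8 are ratios of array signals and no measure of transcript. The 22 genes above background level fell short of that 95th percentile in at least 1 array. Their ratios are thus uncertain as a measure of transcript. All 7 genes listed to check the tissue, among them Epcam of epithelium and Bpifa1 of nasal secretions, were clear in both arrays.

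The 44 genes had no common direction. Their median log2 ratio was -0.04, beside -0.03 over all named genes, with 21 above 0 and 23 below. The Mmp and Adamts genes had medians of -0.0003 and 0.02, signs that changed with the scaling of the arrays, and the Timp genes -0.31. Of the 44, 1 gene (2.27%) was higher by 1.5-fold or more after papain and 6 genes (13.6%) were lower by as much. Over all named genes the shares were 5.38% higher and 4.34% lower. None of the 44 reached 2-fold, against 1.83% of all named genes 2-fold higher and 0.73% 2-fold lower. The gene past 1.5-fold upward was Adamts16, and those past it downward were Mmp2, Mmp9, Mmp11, Mmp14, Adamts10 and Timp2.

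Of the 14 genes with clear signal 11 were below 0, or 78.6%, a share not far from the 66.7% of the 9743 named genes that were clear in both arrays. Their median log2 ratio was -0.25, beside -0.10 for those 9743. Of these 14 genes 4 were at least 1.5-fold lower, or 28.6%, against 3.37% of all clear genes, and 0 were at least 1.5-fold higher, against 1.54% of all clear genes. These 4 were Mmp2, Mmp9, Mmp14 and Timp2. In such bulk RNA, fewer cells of a type and less RNA per cell cannot be told apart.

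**Figure D1:**
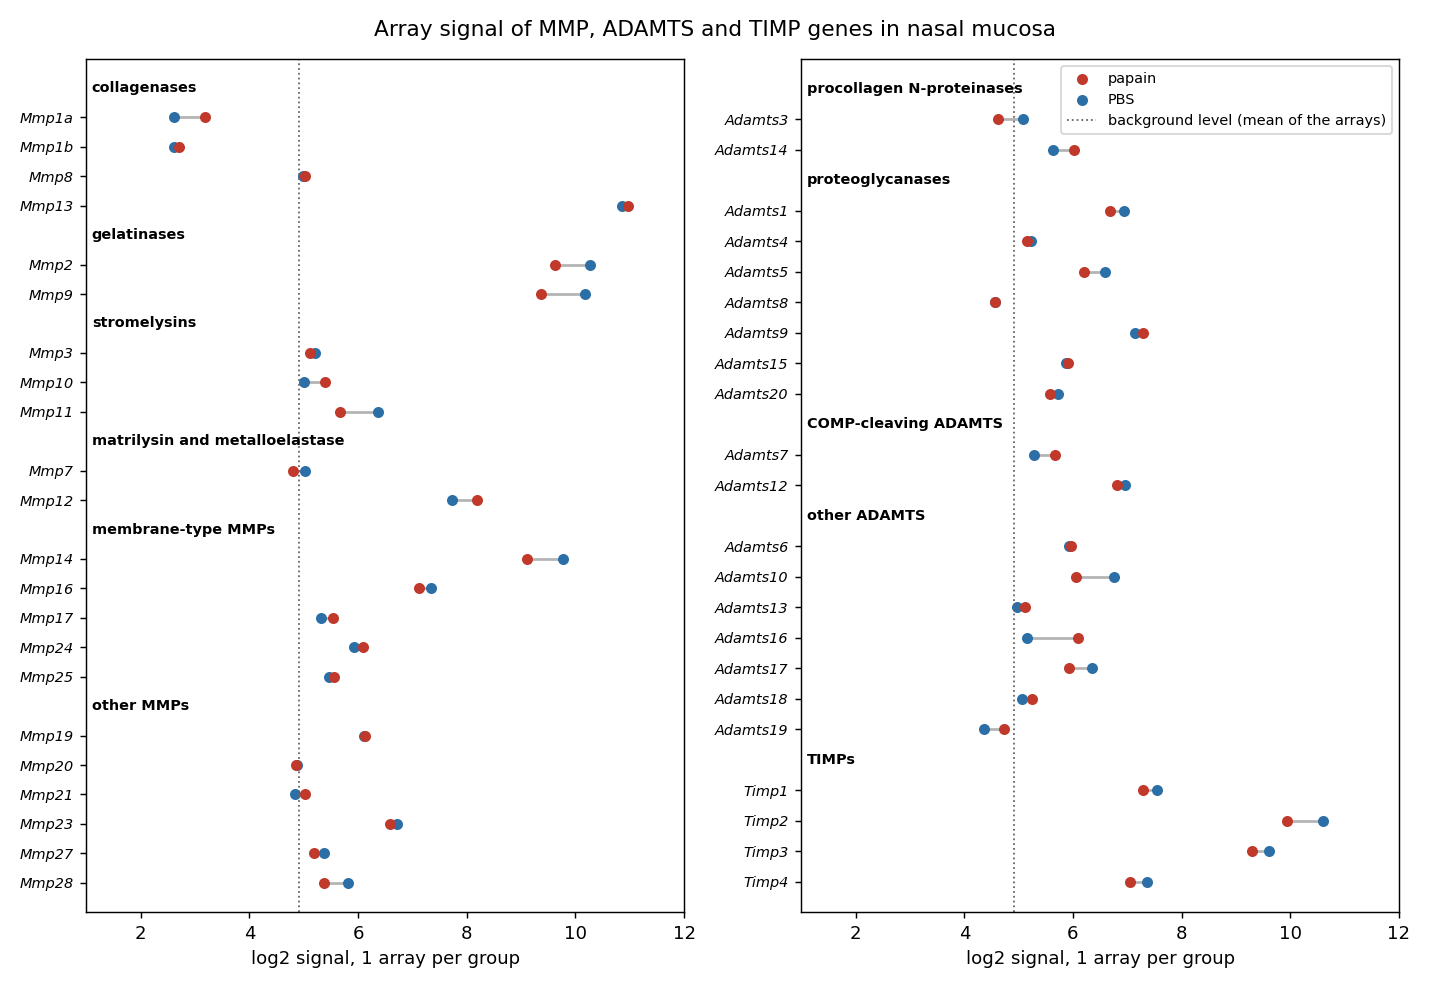
Log2 signal of each of the 44 genes in the papain array (red) and the PBS array (blue), grouped by role, with 1 array per group and background level as a dotted line. Mmp2, Mmp9, Mmp14 and Timp2 sit far right of background level with the papain point to the left of the PBS point, and Mmp13 shows nearly coincident points.

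The gelatinases Mmp2 and Mmp9, which cut denatured collagen and the type IV collagen of basement membranes, were both lower in the papain array. Mmp9 had a log2 signal of 9.36 after papain and 10.17 after PBS, a log2 ratio of -0.81 and a papain over PBS ratio of 0.570. Only 49 of the 9743 clear genes, Mmp9 included, had a ratio this low, or 0.503%. Mmp2 read 9.63 after papain and 10.27 after PBS, a log2 ratio of -0.64. Both differences were larger than the probe set SD, which is no measure of the spread between arrays or animals. Both signals stood more than 4 log2 units above background level in each array.

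The membrane-type enzyme Mmp14 (MT1-MMP) and the inhibitor Timp2 form, at the cell surface, the complex that activates pro-MMP2. Both were lower in the papain array by nearly the same amount as Mmp2. Mmp14 had 9.10 after papain and 9.78 after PBS, a log2 ratio of -0.68. Timp2 had 9.95 after papain and 10.60 after PBS, a log2 ratio of -0.65. The 3 genes of this activation complex thus lay between -0.68 and -0.64.

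The other membrane-type genes showed smaller differences in both directions. Mmp16, the further one with clear signal, read 7.13 after papain and 7.34 after PBS, at a log2 ratio of -0.21. The glycosylphosphatidylinositol-anchored Mmp17 and Mmp25 had 0.23 and 0.08, and Mmp24 had 0.15, all with signals that were not clear. Another probe set, annotated to Mmp24 and BC029722 together and therefore not used, had 6.75 after papain and 6.68 after PBS.

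All 4 Timp genes had clear signal and a ratio below 0, with a median log2 ratio of -0.31, although Timp2 alone passed 1.5-fold. Timp1, an inducible secreted inhibitor, had 7.29 after papain and 7.54 after PBS. Timp3, which binds to the matrix and also inhibits ADAMTS enzymes and ADAM17, had 9.30 after papain and 9.61 after PBS. Timp4 had 7.05 after papain and 7.36 after PBS. The log2 ratios of these 3, -0.25, -0.31 and -0.31, were within 1 probe set SD of 0. The 10 clear Mmp and Adamts genes had a median of -0.18, with 3 of 10 at least 1.5-fold lower.

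**Figure D2:**
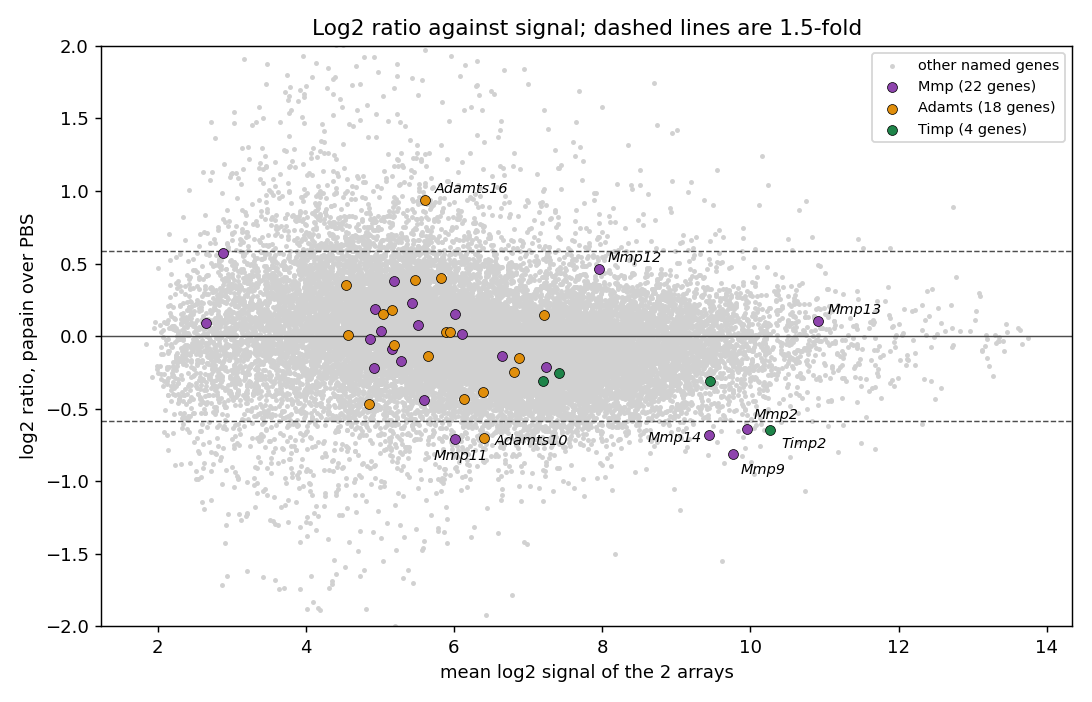
Log2 ratio of papain over PBS against mean log2 signal for all named genes (grey) and for the 22 Mmp, 18 Adamts and 4 Timp genes (coloured), with 1.5-fold as dashed lines. Mmp2, Mmp9, Mmp14 and Timp2 lie under the lower line at mean signals above 9, where few grey points do, while 161 named genes beyond a log2 ratio of 2 in either direction are outside the plotted range.

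Collagenases, which make the first cut in fibrillar collagen, did not go with the gelatinases. Mmp13, the collagenase of cartilage, bone and stroma, had 10.97 after papain and 10.86 after PBS, a log2 ratio of 0.10. This was 0.91 above the log2 ratio of Mmp9. Mmp8, the neutrophil collagenase, lay just above background level at 5.03 after papain and 4.99 after PBS. The paralogues Mmp1a and Mmp1b, near copies of each other whose probe sets may share signal, were under background level in both arrays, at 3.18 and 2.70 after papain and 2.60 and 2.61 after PBS.

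Mmp12, the elastase of macrophages, had the highest log2 ratio among the 14 clear genes. It read 8.18 after papain and 7.72 after PBS, a log2 ratio of 0.46 or 1.38-fold, and so did not reach 1.5-fold. Of the clear genes, 2.66% had a ratio at least as high. Of 6 macrophage markers 4 were above 0, beside 10113 of 22180 named genes and 3243 of the 9743 clear ones. None of the 6 markers reached 1.5-fold, and their median log2 ratio was 0.21. Their summed linear signal was 3658 after papain and 3195 after PBS. Lyz2, at 11.39 after papain and 11.10 after PBS, made up most of that sum. The 6 markers did not share a direction. Cd68, a lysosomal protein of macrophages, had 7.96 after papain and 8.42 after PBS, a log2 ratio of -0.46. Adgre1, which encodes F4/80, had 0.33, with a PBS signal of 6.39 that was not clear. The part of macrophages in the Mmp12 value was not tested. Mmp7 (matrilysin), an epithelial enzyme, was under background level in the papain array at 4.81, with 5.03 in the PBS array, and its second probe set was under background level in both.

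The stromelysins cut a broad range of matrix proteins and activate other pro-enzymes. Mmp10 had 5.39 after papain and 5.01 after PBS, and Mmp3 had 5.12 after papain and 5.21 after PBS, all close to background level. Mmp11, which is activated inside the cell by furin, read 5.66 after papain and 6.37 after PBS with its brighter probe set, a log2 ratio of -0.71. Its second probe set had 5.98 after papain and 5.85 after PBS, a log2 ratio of 0.13, so the direction of Mmp11 differed between its probe sets.

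Of the remaining Mmp genes none reached 1.5-fold. Mmp23 was clear at 6.58 after papain and 6.71 after PBS, with a log2 ratio of -0.13. Mmp28 (epilysin), an epithelial member, had 5.38 after papain and 5.82 after PBS, a log2 ratio of -0.44. Mmp19 at 0.02 and Mmp27 at -0.17 were above background level, while Mmp21 was under it in the PBS array. Mmp20 (enamelysin), which is largely restricted to enamel-forming cells, was under background level in both arrays, at 4.86 after papain and 4.88 after PBS. The 6 marker genes of enamel-forming cells had no common direction: 3 were at least 1.5-fold lower, 1 was higher by that much, and 4 of the 6 were under background level in at least 1 array. Ambn, an enamel matrix gene, had 4.60 after papain, under background level, and 6.30 after PBS. Odam, named after its value was seen, had 5.48 after papain and 3.99 after PBS, under background level, while Amtn had a log2 ratio of -0.15 and Klk4 of 0.18.

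Seen along the genome, 10 of the Mmp genes lie together on chromosome 9, in the order Mmp13, Mmp12, Mmp1b, Mmp3, Mmp1a, Mmp10, Mmp8, Mmp27, Mmp20 and Mmp7 in RefSeq. Within this run Mmp13 and Mmp12 had clear signal, and none of the 10 was 1.5-fold higher or lower. The genes past 1.5-fold downward lie on other chromosomes. AP-1, the dimer of FOS and JUN proteins, is a known activator of several promoters of this run in mammals, and its consensus letters were therefore looked for in RefSeq promoter windows of build GRCm38.p6, each from 250 bases before to 50 bases after a start site. The letters were TGACTCA or TGAGTCA, which are each other's reverse complement, so both strands were covered. Of the 44 genes 30 had a window, and 7 of these held the letters, all 7 in the chromosome 9 run. Of all 27025 genes with a window 5.95% held them. Mmp8, Mmp27 and Mmp20 of the same run had windows without the letters. The 7 stretches are shown because they are what these neighbouring promoters share, each 5′ to 3′ on the strand of its gene with the searched letters in capitals and 12 bases on either side.
Mmp13: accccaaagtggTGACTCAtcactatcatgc
Mmp12: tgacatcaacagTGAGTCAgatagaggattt
Mmp1b: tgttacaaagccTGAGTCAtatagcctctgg
Mmp3: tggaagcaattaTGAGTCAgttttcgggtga
Mmp1a: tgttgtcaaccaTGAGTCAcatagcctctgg
Mmp10: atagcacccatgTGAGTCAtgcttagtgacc
Mmp7: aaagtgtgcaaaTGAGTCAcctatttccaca

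These stretches lie on the plus strand at chr9:7272467-7272497 for Mmp13, chr9:7347318-7347348 for Mmp12, chr9:7445764-7445794 for Mmp3, chr9:7464056-7464086 for Mmp1a, chr9:7502267-7502297 for Mmp10 and chr9:7692015-7692045 for Mmp7, and on the minus strand at chr9:7388101-7388131 for Mmp1b. The first of the searched letters stood 35 bases before the start site in Mmp13, 44 in Mmp12 and 46 in Mmp3. In Mmp10 and Mmp7 it stood 63 bases before it, in Mmp1a 73 and in Mmp1b 93. Mmp12 and Mmp7 each have another window, without the letters. The 7 genes with the letters had a median log2 ratio of 0.10. Of them 5 were above 0 and 2 below, beside 10113 of 22180 named genes above 0. The 23 genes with a window and without the letters had a median of -0.15. Of the 7, Mmp13 and Mmp12 alone had clear signal in both arrays. A link between the letters and the ratios was not tested. A match is a string of letters and no measure of binding, and 3 of the 7 genes, Mmp1b, Mmp1a and Mmp7, had a signal under background level.

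The promoters of Mmp14 and Timp2 held more G and C than those of the chromosome 9 run. Windows of Mmp2 and Mmp9 were not used here. The 250 bases before the start site are printed for both, with that of Mmp13 beside them for contrast, 5′ to 3′ on the gene's strand, again with the searched letters in capitals. Mmp14 lies at chr14:54431348-54431597 on the plus strand, Timp2 at chr11:118355412-118355661 on the minus strand and Mmp13 at chr9:7272264-7272513 on the plus strand.
Mmp14: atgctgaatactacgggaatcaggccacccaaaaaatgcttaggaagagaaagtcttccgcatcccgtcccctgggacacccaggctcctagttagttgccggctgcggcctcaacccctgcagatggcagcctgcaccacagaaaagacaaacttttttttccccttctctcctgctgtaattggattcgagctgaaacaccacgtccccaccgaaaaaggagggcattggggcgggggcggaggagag
Timp2: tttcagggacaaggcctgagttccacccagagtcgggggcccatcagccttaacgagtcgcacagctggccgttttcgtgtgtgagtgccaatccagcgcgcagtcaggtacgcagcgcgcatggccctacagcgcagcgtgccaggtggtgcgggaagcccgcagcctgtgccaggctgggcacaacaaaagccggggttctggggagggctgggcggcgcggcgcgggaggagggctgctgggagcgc
Mmp13: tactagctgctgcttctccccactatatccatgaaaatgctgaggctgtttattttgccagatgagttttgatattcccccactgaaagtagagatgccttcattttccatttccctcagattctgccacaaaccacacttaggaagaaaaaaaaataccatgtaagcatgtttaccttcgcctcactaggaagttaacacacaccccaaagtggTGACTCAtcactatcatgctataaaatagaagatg

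G and C made up 56.0% of the 300-base window of Mmp14 and 68.7% of that of Timp2, against 43.7% for Mmp13. Over the 7 windows with the letters the median was 40.7%, from 37.7% to 43.7%, and over the other windows of these families it was 62.7%. The median of all windows was 52.7%. Windows rich in G and C belonged to genes above 0 and below 0. Examples are Mmp24 with 80.0% at a log2 ratio of 0.15 and Adamts3 with 77.3% at -0.47. A link between base composition and the ratios was not tested.

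Counts of genes for FOS, JUN and ETS proteins and for cytokines upstream of these enzymes lay near the shares of the whole array. Their median was lower than that of the array. Of 16 genes in that list 14 were measured and 10 were below 0, beside 54.4% of all named genes and 66.7% of the clear ones. Of the 14, 1 or 7.14% was at least 1.5-fold lower, beside 4.34% of all named genes, and none was higher by that much. The median log2 ratio was -0.23, beside -0.03 over all named genes and -0.10 over the clear ones. Il1a, an alarmin cytokine, had 5.91 after papain and 6.51 after PBS, a log2 ratio of -0.60. Il1b, an inducer of several Mmp genes, went the other way, at 7.50 after papain and 6.98 after PBS, a log2 ratio of 0.51. Jund, an AP-1 subunit, had -0.49 and the transcription factor Ets2 had -0.51.

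The ADAMTS genes held the largest single difference upward. Adamts16, whose substrates are less well defined and which is known from kidney and gonad, had 6.08 after papain and 5.14 after PBS, a log2 ratio of 0.94 or 1.92-fold. The PBS signal was 0.22 above background level and neither signal was clear, so the size of this fold is uncertain. Adamts10, which associates with fibrillin microfibrils, had 6.06 after papain and 6.76 after PBS, a log2 ratio of -0.70. Its PBS signal was clear and its papain signal was not.

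The proteoglycanases, which cut aggrecan and versican, all lay within 1.5-fold. Of the 7, 4 were below 0 and 3 above, with a median log2 ratio of -0.06. Adamts1 had 6.69 after papain and 6.93 after PBS, a log2 ratio of -0.25. Adamts9 had 7.28 after papain and 7.14 after PBS, a log2 ratio of 0.14. These 2 were the clear members of the group. Adamts5, a principal aggrecanase of mouse cartilage, had 6.20 after papain and 6.59 after PBS, a log2 ratio of -0.38. Adamts4 at -0.06, Adamts15 at 0.03 and Adamts20 at -0.14 were above background level, and Adamts8 was under it in both arrays with either probe set.

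Procollagen N-proteinases remove the amino-terminal propeptide of fibrillar procollagens. Adamts14 had 6.03 after papain and 5.63 after PBS, a log2 ratio of 0.40, whereas its second probe set, with a signal under background level in both arrays, had -0.04. Adamts3 had 4.62 after papain, under background level, and 5.08 after PBS. Of the enzymes that cut cartilage oligomeric matrix protein, Adamts12 was clear at 6.81 after papain and 6.96 after PBS, and Adamts7 had 5.66 after papain and 5.28 after PBS. Their log2 ratios were -0.15 and 0.38.

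The further ADAMTS genes were dim. Adamts17 had 5.92 after papain and 6.35 after PBS, a log2 ratio of -0.43. Adamts13, the protease that trims von Willebrand factor, had 0.15, Adamts18 had 0.18 and Adamts6 had 0.03. Adamts19 was under background level in both arrays. The non-catalytic ADAMTS-like relatives and Papln had a median log2 ratio of -0.004 over 6 genes. Of these 1, Adamtsl1 at -0.59, was at least 1.5-fold lower, or 16.7%, beside 4.34% of all named genes. None was higher by that much.

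Genes that activate or restrain these enzymes differed little, and mostly downward. Of 15 genes in that list 13 were measured, 9 of them clear in both arrays, and none reached 1.5-fold. Of the 13, 12 were below 0, beside 54.4% of all named genes and 66.7% of the clear ones. The median log2 ratio was -0.25. Reck, a membrane-anchored inhibitor of MMP2, MMP9 and MMP14, had 7.35 after papain and 7.65 after PBS, a log2 ratio of -0.29. The proprotein convertase gene Pcsk6 had -0.54 and Pcsk5 had -0.49. Plau, the urokinase activator of plasminogen, had -0.47, and Plat, the tissue-type activator, had -0.06. Plg itself had 0.49, at 5.51 after papain and 5.02 after PBS, the latter close to background level. Signals of Pcsk5, Plau and Plg were not clear in either array, so the size of their ratios is uncertain. The sister family of ADAM sheddases had a median of -0.15 over 9 genes with none past 1.5-fold, from Adam12 at -0.55 to Adam19 at 0.27.

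Several genes for matrix substrates were lower in the same array. Of 20 listed genes 18 were measured, 10 of them clear in both arrays. Of the 18, 15 were below 0, beside 54.4% of all named genes and 66.7% of the clear ones. At least 1.5-fold lower were 4, or 22.2%, beside 4.34% of all named genes, and none was higher by that much. The median log2 ratio was -0.39. Col1a1 and Col1a2, the chains of type I collagen, had -0.60 and -0.78. Nid1, a basement membrane linker, had 6.76 after papain and 7.69 after PBS, a log2 ratio of -0.93. Acan, the cartilage proteoglycan aggrecan, had 6.14 after papain and 6.96 after PBS, a log2 ratio of -0.82. These 4 were the substrates past 1.5-fold.

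**Figure D3:**
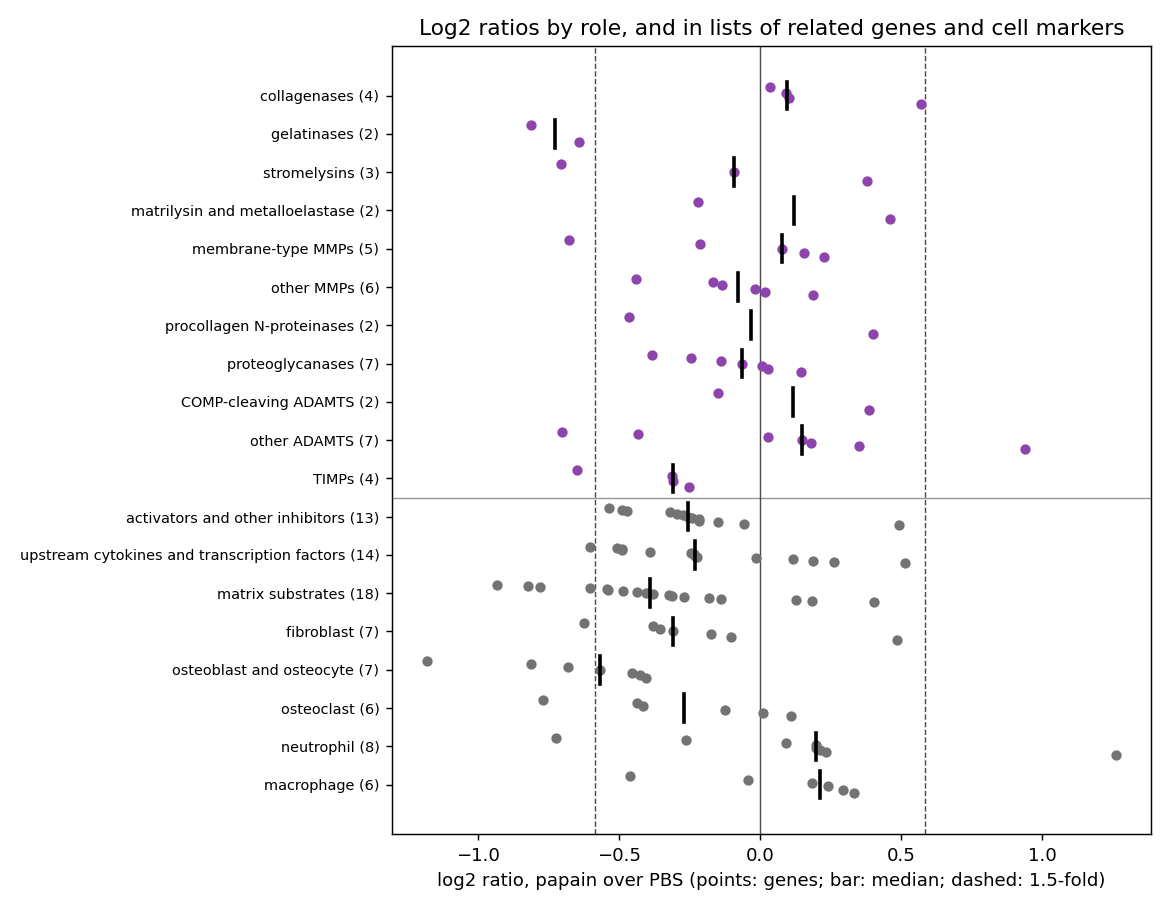
Log2 ratio of papain over PBS for each gene (points) and the median (black bar) by role of the Mmp, Adamts and Timp genes (purple) and in lists of related genes and cell markers (grey), with the number of genes in brackets and 1.5-fold as dashed lines. The gelatinases and TIMPs lie wholly left of 0, as do the osteoblast and osteocyte markers, whereas the 4 collagenases, of which Mmp1a and Mmp1b were under background level, lie right of it.

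Most markers of bone cells and fibroblasts were lower in the papain array too. Over all named genes 54.4% were below 0, and over the clear ones 66.7%. All 7 osteoblast and osteocyte markers were below 0, with a median log2 ratio of -0.57 and a summed linear signal of 2826 after papain and 3987 after PBS. Sp7, the transcription factor of osteoblasts, had -0.81. Of 6 osteoclast markers 4 were below 0, with a median of -0.27 and a summed signal of 2482 after papain and 3555 after PBS. Acp5 (tartrate-resistant acid phosphatase) had -0.77, Ctsk (cathepsin K) -0.44, Atp6v0d2 -0.42 and Oscar -0.12. Calcr, under background level in the PBS array, had 0.11 and Ocstamp had 0.01. Both are named after their values were seen. Osteoclasts are a known source of MMP9 and MMP14. Fibroblast markers lay below 0 for 6 of 7 genes, at a median of -0.31 and a summed signal of 5200.4 after papain and 6458 after PBS, Pdgfrb at -0.62 and Pi16 at 0.49. The part of these cells in the lower Mmp2, Mmp9, Mmp14 and Timp2 signals was not tested.

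Neutrophils are another known source of MMP9, as well as of MMP8. Of 8 neutrophil markers 6 were above 0, with a median log2 ratio of 0.20. In each direction 1 marker, or 12.5%, was past 1.5-fold, beside 5.38% of all named genes higher and 4.34% lower. The summed linear signal of the 8 was 7601 after papain and 6535 after PBS. The marker past 1.5-fold upward was Cxcr2, a chemokine receptor of neutrophils, at 1.26, and the other 5 above 0 were within 1 probe set SD of 0. The marker past 1.5-fold downward was Ly6g, at -0.72, which like Camp was under background level in both arrays, and both are named after their values were seen. Ltf, which nasal glands also express, was the 1 marker with clear signal in both arrays and made up most of that sum, and the other 7 markers summed to 405 after papain and 330 after PBS. All 5 markers of vomeronasal neurons, cells of a sensory organ in the nasal septum, were above 0. Over all named genes 10113 of 22180 were above 0. The 5 markers had a median of 0.56 and a summed signal of 3148 after papain and 2404 after PBS. Calr4, named after its value was seen, had 7.94 after papain and was under background level after PBS, at 4.59. Trpc2, at 7.04 after papain and 6.21 after PBS, was not clear in the PBS array. The other 3 were clear in both arrays and made up most of that sum. The vomeronasal markers moved with the groups, and the part of vomeronasal tissue in the values of the protease and inhibitor genes was not tested.

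Collagen genes, the main substrates, gave similar counts past 1.5-fold but lay below 0 more often. They were likewise 44 in number, with 1 past 1.5-fold upward and 6 past it downward. Their median log2 ratio was -0.20, and 34 were below 0, beside 23 of the 44 Mmp, Adamts and Timp genes. Of the 22 collagen genes with clear signal 21 were below 0, beside 11 of the 14 clear Mmp, Adamts and Timp genes. Of these 22 collagen genes 6 were at least 1.5-fold lower, or 27.3%, beside 3.37% of all clear genes. Serpin genes, inhibitors mostly of serine proteases, had a median of -0.05 over 53 genes. Of these, 7 or 13.2% were at least 1.5-fold higher, beside 5.38% of all named genes. A further 7 or 13.2% were lower by as much, beside 4.34%. Of the 53 serpin genes 29 were under background level in at least 1 array. No test of a difference between these families was possible with 1 array per group.

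Under 3 other ways of scaling the arrays the same 7 genes were past 1.5-fold in the same direction, joined each time by Mmp1a, whose signals were under background level. The log2 ratio of Mmp9 was -0.76 after loess, that of Mmp14 -0.62, that of Timp2 -0.61 and that of Mmp2 -0.60, the last against a threshold of 0.585. Averaging the probe sets of a gene moved Mmp11 inside 1.5-fold, to -0.29, and left the other 6 genes where they were, since each has 1 probe set.

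**Figure D4:**
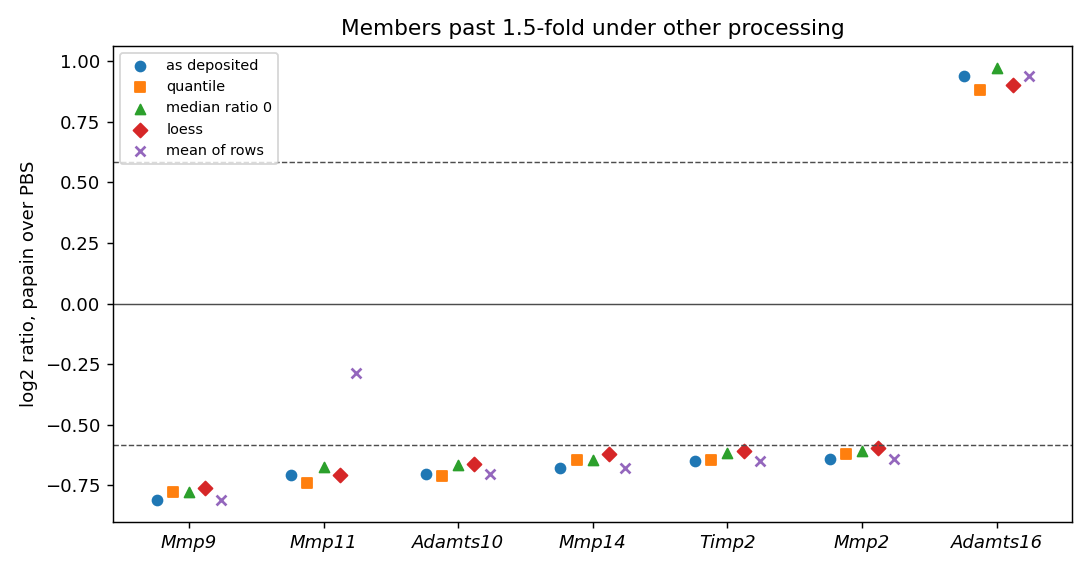
Log2 ratio of papain over PBS of the 7 genes past 1.5-fold, as deposited and under 4 other settings (markers), with 1.5-fold as dashed lines. The points of a gene lie close together except for Mmp11, which is at -0.29 when its probe sets are averaged.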

How the data were processed

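Total RNA of nasal mucosa was hybridised to 1 array per group, per the labels. The authors deposited 1 log2 signal for each transcript cluster; the scale was inferred from the numbers (column medians 5.70 for papain and 5.64 for PBS). Per the submitters' processing notes, Transcriptome Analysis Console 4.0 was used. How background, summarisation and normalization were handled is not given in the sources used here. If the arrays were made equal in that step, a difference in total RNA would be lost, and every ratio is relative to most other probe sets.

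Of 41345 probe sets 23521 carried 1 gene symbol in the platform annotation, 1814 several and 16010 none, and only the first were named. All 44 genes described had the same symbol in RefSeq. The gene choice and the lists of roles, related genes and markers were made with earlier results of these data known. Every Mmp, Adamts and Timp gene could be named. From other lists up to 4 genes at or above background level in both arrays with the largest ratios were named, besides Reck, Plau, Plat, Acan, Col1a1, Ambn, Ctsk, Sp7 and Cxcr2.

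No test was run, since 1 array per group leaves no replicate error, and precision is limited by the number of arrays. The counting step was tested on simulated data with less noise than the spread between probe sets, which is no check of the calls near 1.5-fold. Alternatives were quantile normalization, a median ratio of 0, loess with a span of 0.3, averaged probe sets, filters on dim genes and a lower threshold and one of 2-fold. Genes for chondrocytes, endothelium and basal epithelium were also listed, with median log2 ratios of -0.02, -0.18 and -0.11, and enamel genes had -0.57 with 4 of 6 under background level in at least 1 array. Python 3.11.15, numpy 2.4.6, pandas 2.3.3, statsmodels 0.14.6 and matplotlib 3.10.9 were used.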

Additional observations from a re-analysis of the deposited data

How the results depend on the processing

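Scaling moved no median of the families by more than 0.1 on the log2 scale, although those of Mmp and Adamts genes, close to 0, changed sign. With genes under background level in either array left out, the median was -0.11 over all members, -0.09 for Mmp and 0.03 for Adamts genes. Stricter filters on dim genes moved the medians more, except that of the Timp genes. Where the higher signal had to reach the median of all named genes, the median log2 ratio was -0.31 over all members, -0.43 for Mmp and -0.31 for Adamts genes. This filter lets in 4 genes through their PBS signal alone, Mmp11, Adamts5, Adamts10 and Adamts17, and 0 through papain alone, so these medians lean downward by construction and are no support for a lower level. Without those 4 they were -0.25, -0.21 and -0.15, the same as with clear signal in both arrays. With the mean of both signals at that median they were -0.28, -0.21 and -0.25. The last 2 filters were chosen after seeing the data. The count at least 1.5-fold higher was 2 in place of 1 after quantile normalization, with the median ratio set to 0 and after loess, the addition being Mmp1a under background level. It stayed 1 with genes under background level left out and was 0 under all 3 stricter filters. At 2-fold 0 genes were higher and 0 lower, and at the lower threshold tried 7 were higher and 10 lower. The count lower was 6 under each scaling and 5 with averaged probe sets, which took out Mmp11. It was 6 with genes under background level left out and with the filter on the higher signal. With clear signal in both arrays it was 4, and with the filter on the mean signal 5. Of the 44 single ratios none moved by more than the probe set SD under a scaling, and 1, Mmp11, did with averaged probe sets. No paired analysis was possible because each group has 1 array. Differences smaller than about 0.33 lie within the spread between probe sets of a gene, and the spread between animals is unknown.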

Other observations

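Probe sets that carry a symbol of these families but were not used numbered 5. Of these, 4 were the dimmer probe set of a gene that has 2, and 1 was annotated to Mmp24 together with BC029722, with a log2 ratio of 0.07. The dimmer probe set had the opposite direction from the brighter one for Mmp7 and Adamts14, at 0.20 and -0.04, as it did for Mmp11, and the same direction for Adamts8, at 0.28 beside 0.01. All probe sets of Mmp7 and Adamts8, and the dimmer one of Adamts14, had at least 1 signal under background level.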
